A study of Mus musculus with 20 samples.

Results

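Type I interferon-stimulated genes were followed in regulatory T cells (Tregs, the CD4 lineage that holds back immune responses) of mice, with and without the small GTPases Rheb or Rag. The members were a written list of 41 gene symbols, looked up in the array annotation. For 40 of them a named probe set was found among the 19505 genes of the table, and Ifi44 is not analysed here. The members were picked for their function, with earlier results of these arrays known.

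CD4+CD25+ cells from C57BL/6 mice were sorted after CD4 bead enrichment, and each of 20 Clariom S arrays measured 1 sample. In the Rheb experiment the groups were stimulated and unstimulated Tregs lacking Rheb1 and Rheb2 (Rheb KO) and stimulated and unstimulated wild-type (WT) Tregs, with 3 arrays in each group. In the Rag experiment they were Tregs lacking RagA and RagB (RagAB KO, here Rag KO) and WT Tregs, each stimulated for 8 h or unstimulated, with 2 arrays in each group. The sources used here give neither the stimulus, nor its duration in the Rheb experiment, nor the Cre line or promoter behind the deletions. Rheb and Rag proteins switch on the kinase complex mTORC1, and the comparisons ask how interferon-stimulated genes respond to stimulation and whether that response depends on either GTPase. For 6 arrays of the Rheb experiment (unstimulated Rheb KO and stimulated WT) the treatment field of the labels contradicts the titles; groups follow the titles, since the source names and the design given for the series fit those. Whether replicate arrays stand for separate mice is not said in the labels, and a p-value here covers only the sample-to-sample spread, which may be technical.

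Type I interferons bind a receptor whose kinases activate transcription factors, Stat2 among them. Stat2 and Irf9 belong to the complex ISGF3, which binds interferon-stimulated response elements in promoters. The genes it switches on encode sensors of foreign nucleic acid, enzymes and binding proteins that act on viral RNA, the ubiquitin-like modifier Isg15, and feedback regulators, and T cells keep a low tonic output of them.

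Because the list is defined by a shared promoter response, its promoters were searched for that element, using the windows of RefSeq for build GRCm38.p6 (250 bases before to 50 bases after each start). Of the 40 members, 29 had such a window. The interferon-stimulated response element was searched as GAAA, any 2 bases, GAAA, on either strand, and was found in 14 of these 29 members (48.3%), against 1079 of 27025 genes with a promoter (3.99%). The gamma-activated letters TTCNNNGAA, which read the same way on both strands, were found in 7 of the 29 (24.1%), against 9.55% of all genes. Shown here are 150 bases before the start for the 3 members with the largest stimulation response in WT Tregs of the Rheb experiment, and for Ifit1 and Isg15, which hold 2 and 3 copies of the element. Capitals mark matches to the element, which reads GAAA, any 2 bases, GAAA on the gene's strand or TTTC, any 2 bases, TTTC where it lies on the other one.
Ifit1bl1 (chr19:34601969-34602118, minus strand, GRCm38.p6): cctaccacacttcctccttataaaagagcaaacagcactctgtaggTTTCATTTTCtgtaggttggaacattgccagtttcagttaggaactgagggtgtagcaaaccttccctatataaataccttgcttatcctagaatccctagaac
Ifi213 (chr1:173599273-173599422, minus strand, GRCm38.p6): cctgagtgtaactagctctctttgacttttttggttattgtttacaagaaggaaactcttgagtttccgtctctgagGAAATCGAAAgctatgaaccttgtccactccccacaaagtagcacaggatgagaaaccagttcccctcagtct
Cmpk2 (chr12:26469065-26469214, plus strand, GRCm38.p6): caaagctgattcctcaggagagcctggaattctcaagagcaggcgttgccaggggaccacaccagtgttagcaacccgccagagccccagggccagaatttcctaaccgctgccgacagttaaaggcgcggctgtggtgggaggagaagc
Ifit1 (chr19:34640739-34640888, plus strand, GRCm38.p6): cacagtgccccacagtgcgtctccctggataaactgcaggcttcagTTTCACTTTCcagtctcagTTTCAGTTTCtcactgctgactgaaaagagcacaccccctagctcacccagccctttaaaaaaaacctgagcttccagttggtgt
Isg15 (chr4:156200819-156200968, minus strand, GRCm38.p6): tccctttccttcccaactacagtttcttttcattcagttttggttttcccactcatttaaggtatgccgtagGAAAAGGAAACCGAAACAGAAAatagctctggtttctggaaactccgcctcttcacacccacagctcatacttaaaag
Ifit1bl1 has 2 promoters in the table, and 1 is shown. In Isg15 the 3 matches overlap within a single run, while in Ifit1 the 2 matches stand apart. Cmpk2 holds no match in its window, which says only that these letters are not there.

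**Figure D1:**
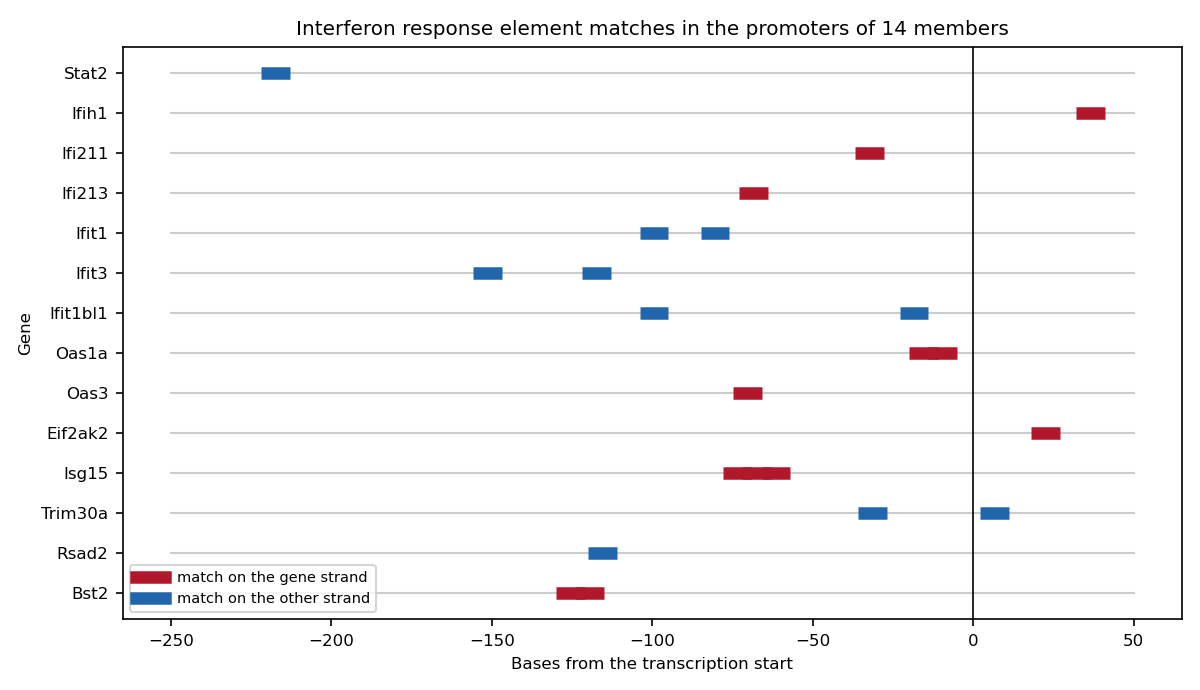
Position of each match to the interferon response element in the promoters of the 14 members that hold one; the horizontal axis gives bases from the transcription start, red bars matches on the gene's strand and blue bars matches on the other strand. Matches in several promoters of a gene are drawn on 1 line, each measured from its own start; Ifit1 and Ifit3 each hold 2 separate matches, Bst2 and Oas1a 2 that overlap, and Isg15 3 that overlap.

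Levels are deposited log2 signals, and different probe sets were not compared with each other. Each was set instead against the 5222 negative control probe sets of the same arrays. A member was called near the controls in a group when its mean was at or below the mean of the arrays' control medians, and above them when every array exceeded its own 95th percentile of controls. By this rule 30 of 40 members were near the controls in no group. Bst2, Ifi35, Ly6e, Samhd1, Sp100, Stat2 and Trim30a stood above them in all 8 groups. Ifi211 belongs to the family of interferon-inducible nucleic acid binding proteins that also holds Ifi213. Ifi211 and Mx1, of the dynamin-like GTPases, were near the controls in all 8 groups. Rsad2 was near them in 7 groups, Oas3 and Oasl1 in 5, Ifit2 in 4, Cmpk2 in 3, Oas2 and Oasl2 in 2 and Mx2 in 1, so the size of a change into or out of those groups is uncertain.

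The median signal of an array, taken over all genes, was 7.67 to 7.77 for the Rheb experiment. For the Rag experiment it was 7.18 to 7.55, where unstimulated Rag KO array 1 (7.29) and unstimulated WT array 2 (7.18) were lowest. Rraga, which encodes RagA, had signals between 6.67 and 7.50 in Rag KO arrays, against 9.19 to 9.76 in the WT arrays of that experiment. Rheb had signals between 8.81 and 9.05 in unstimulated Rheb KO arrays, against 9.34 to 10.14 in the unstimulated WT arrays of that experiment. With stimulation its signals were 9.33 to 9.47 in Rheb KO arrays, against 10.18 to 10.52 in WT arrays. The 7 measured markers of Tregs and CD4 T cells averaged between 10.50 and 11.32 in every array, and none was near the controls. Il2ra, the gene of the sorted marker CD25, came close to them in unstimulated Rheb KO Tregs (7.05, against a control median of 6.95). Foxp3 is not analysed here.

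Stimulation lowered many interferon-stimulated genes in the Rheb experiment and raised a few, in both genotypes. In Rheb KO Tregs 5 of 40 members rose and 21 fell, where 4.55% of all genes tested rose and 5.19% fell. In WT Tregs 4 rose and 15 fell, where 4.49% of all genes rose and 4.89% fell. When the arrays of both experiments shared 1 fit, the 4 rises in WT Tregs all missed the threshold. Their limma adjusted p lay between 0.1526 for Stat2 and 0.3267 for Samhd1. The WT falls of Oasl1, Oasl2 and Sp100 missed the threshold in that fit too. In Rheb KO Tregs the rises of Stat2 (adjusted p = 0.1292) and Dtx3l (0.1179) missed it. So did the Rheb KO falls of Oas1a, Oasl1, Herc6, Ly6e, Sp100 and Ifi27l2a. The largest falls were those of Ifit1bl1, Cmpk2, Ifi213, Oas2 and Isg20 in Rheb KO Tregs and of Ifit1bl1, Ifi213, Cmpk2, Oas2 and Irf7 in WT Tregs. Calls are an adjusted p below 0.05 (limma with Benjamini-Hochberg adjustment over all 19505 genes), and changes are on the log2 scale with their standard error. The median change of the 40 members was -0.45 in Rheb KO and -0.32 in WT Tregs, against -0.01 and 0.02 for all genes tested. In Rheb KO Tregs the stimulated arrays lay entirely above the unstimulated ones for 5 members and entirely below for 25, where 13.5% and 14.4% of all genes did. In WT Tregs this held for 6 and 22 members, where 12.9% and 11.5% of all genes did. The median signal over the 40 members was between 8.77 and 8.87 in the stimulated Rheb KO arrays and between 9.13 and 9.41 in the unstimulated ones. In WT Tregs it was between 8.44 and 8.63 in stimulated arrays and between 9.27 and 9.47 in unstimulated arrays.

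**Figure D2:**
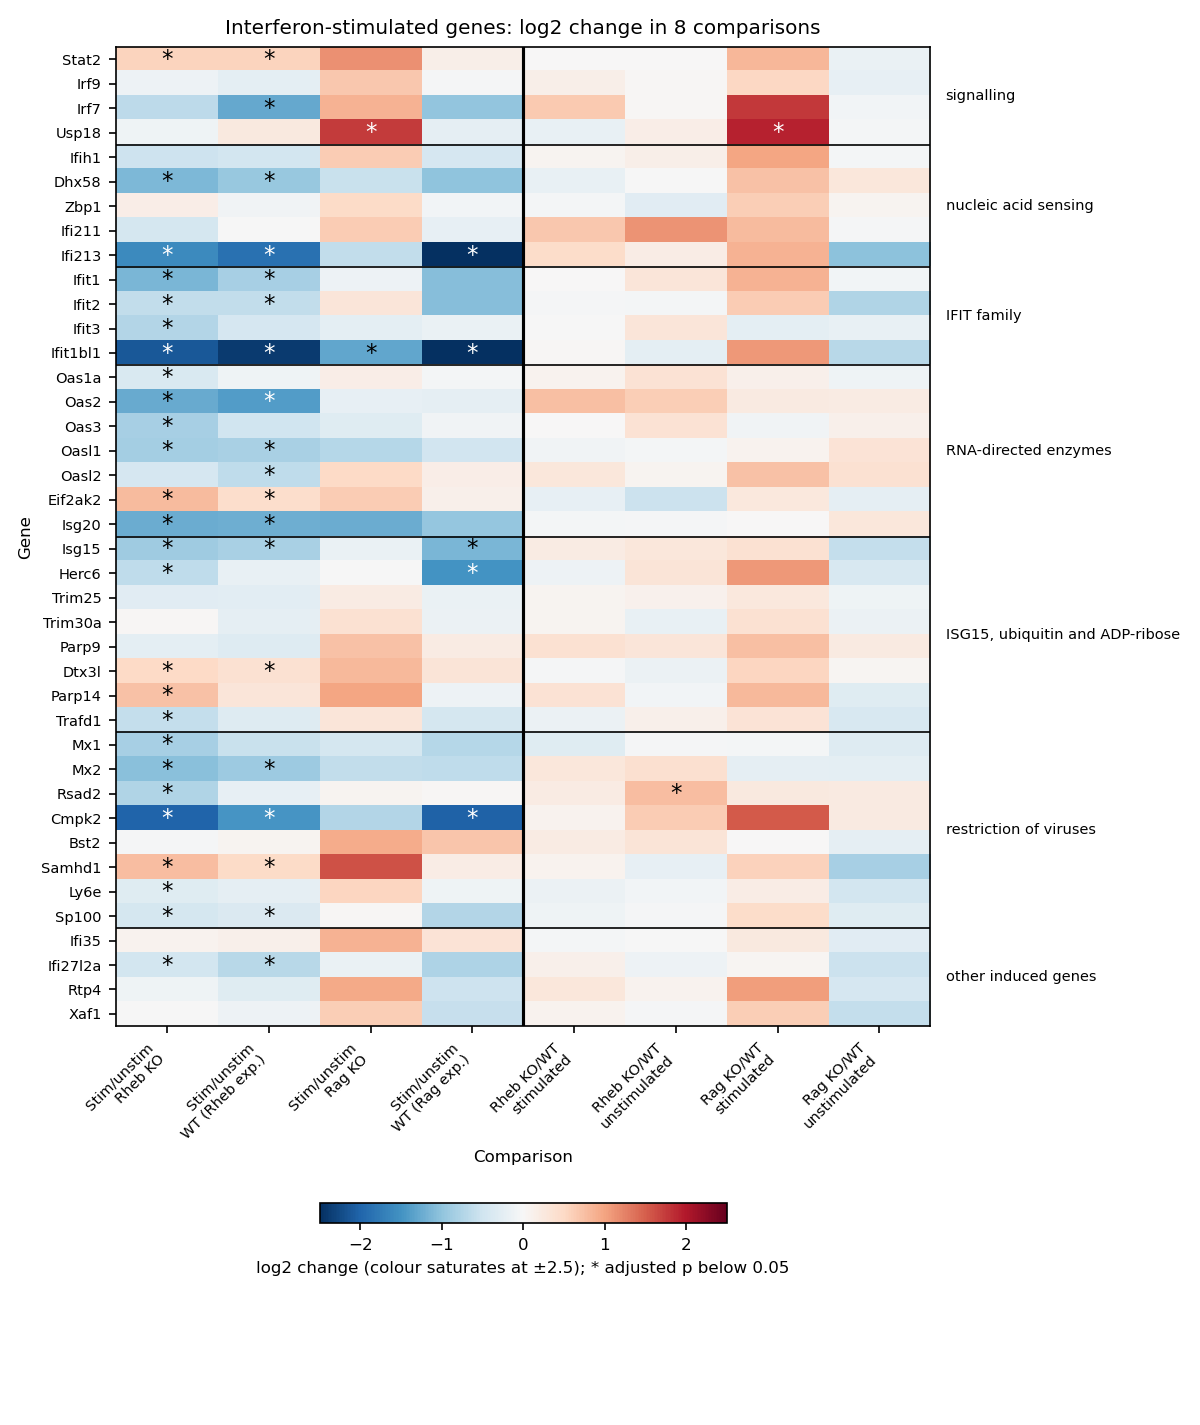
Log2 change of each of 40 members (rows, grouped by role) in the 4 stimulation responses (left of the line) and the 4 knockout effects (right), red for higher and blue for lower in the group named first, with a star where the adjusted p was below 0.05. The left columns are mostly blue in the Rheb experiment, with stars on 26 members in Rheb KO and 19 in WT, and the column of Rag KO over WT in stimulated cells is red for 36 of 40 members with 1 star, on Usp18.

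Among the signalling members, Stat2, a subunit of ISGF3, rose. Its signals were 11.28, 11.21 and 11.20 in stimulated Rheb KO Tregs, against 10.68, 10.60 and 10.71 in unstimulated Rheb KO Tregs (change 0.56 ± 0.09, limma adjusted p = 0.0008067). They were 11.26, 11.14 and 11.24 in stimulated WT Tregs, against 10.73, 10.64 and 10.63 in unstimulated WT Tregs (0.55 ± 0.09, limma adjusted p = 0.001127). Every stimulated array lay above every unstimulated one, and the size was nearly equal in the 2 genotypes. Irf7, a factor that amplifies type I interferon production, went the other way. Its signals were 9.03, 8.91 and 8.84 in stimulated Rheb KO Tregs, against 9.62, 9.09 and 10.05 in unstimulated Rheb KO Tregs (-0.66 ± 0.21, adjusted p = 0.06717, not called). They were 8.63, 8.11 and 8.06 in stimulated WT Tregs, against 9.35, 9.58 and 9.73 in unstimulated WT Tregs, a fall by 1.29 ± 0.21 (limma adjusted p = 0.001486). The stimulated arrays lay below the unstimulated ones in both genotypes; in Rheb KO Tregs the unstimulated arrays were spread over almost a whole log2 unit, and without unstimulated array 2 the fall there passed the test (-0.91, adjusted p = 0.01017).

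Irf9, the subunit through which ISGF3 recognises DNA, and Usp18, a protease that removes Isg15 from proteins and also restrains the interferon receptor, were not called in either genotype. Irf9 had signals of 10.14, 10.04 and 9.91 in stimulated Rheb KO, against 10.08, 10.18 and 10.22 in unstimulated Rheb KO Tregs (-0.13 ± 0.11). In WT Tregs its signals were 9.97, 9.95 and 9.73 with stimulation, against 10.15, 9.96 and 10.26 without (-0.24 ± 0.11). Both sets of arrays overlapped. Usp18 had signals of 10.40, 10.15 and 10.54 in stimulated Rheb KO, against 10.65, 10.26 and 10.54 in unstimulated Rheb KO Tregs (-0.12 ± 0.12). In WT Tregs Usp18 had 10.50, 10.55 and 10.61 with stimulation, against 10.40, 10.24 and 10.29 without (0.24 ± 0.12), groups that did not overlap.

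Of the 5 nucleic acid sensing members, 2 fell in both genotypes. Ifi213 had signals of 8.83, 8.90 and 8.50 in stimulated Rheb KO, against 10.31, 10.05 and 10.64 in unstimulated Rheb KO Tregs (-1.59 ± 0.17, limma adjusted p = 4.203e-05). It had 8.36, 8.48 and 8.03 in stimulated WT, against 10.04, 10.08 and 10.32 in unstimulated WT Tregs (-1.86 ± 0.17, adjusted p = 1.936e-05). The gap between the groups was more than 1 log2 unit in each genotype. Dhx58, which encodes the RNA receptor LGP2, fell by 1.12 ± 0.12 in Rheb KO and by 0.94 ± 0.12 in WT Tregs. Ifih1 (the RNA receptor MDA5), Zbp1 (a sensor of Z-form nucleic acid) and Ifi211 were not called.

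All 4 members of the IFIT family, proteins that bind foreign RNA and block its translation, fell in Rheb KO Tregs, and 3 of 4 fell in WT Tregs. Ifit1bl1 had the largest change of the list, with signals of 8.06, 7.72 and 7.74 in stimulated Rheb KO, against 10.08, 9.96 and 9.86 in unstimulated Rheb KO Tregs (-2.12 ± 0.18, limma adjusted p = 8.577e-06). Its signals were 7.98, 8.13 and 7.33 in stimulated WT, against 10.12, 10.17 and 10.32 in unstimulated WT Tregs (-2.39 ± 0.18, adjusted p = 5.021e-06). In linear terms that is 0.23 times the unstimulated signal in Rheb KO and 0.191 times in WT Tregs. Ifit1 had 7.72, 7.80 and 8.22 in stimulated Rheb KO, against 9.07, 8.65 and 9.42 in unstimulated Rheb KO Tregs (-1.13 ± 0.18, adjusted p = 0.001246), and it fell by 0.83 ± 0.18 in WT Tregs. Ifit2 fell by 0.61 ± 0.13 in Rheb KO and by 0.62 ± 0.13 in WT Tregs, into the range of the controls. Ifit3 fell in Rheb KO Tregs (-0.72 ± 0.16) and was not called in WT Tregs (-0.43 ± 0.16).

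The RNA-directed enzymes split. Eif2ak2, the RNA-activated kinase PKR that stops translation, rose, with signals of 9.74, 9.77 and 9.85 in stimulated Rheb KO, against 8.94, 9.08 and 8.98 in unstimulated Rheb KO Tregs (0.79 ± 0.12, limma adjusted p = 0.0008132). In WT Tregs it had 10.03, 9.84 and 10.07 with stimulation, against 9.27, 9.62 and 9.72 without (0.45 ± 0.12, adjusted p = 0.03053). The WT call was lost without unstimulated WT array 1 (adjusted p = 0.1144) and without stimulated WT array 1 (0.09913) or 3 (0.09427). Isg20, an exonuclease that degrades RNA, fell with little spread, at 8.74, 8.82 and 8.91 in stimulated Rheb KO, against 10.08, 9.93 and 10.17 in unstimulated Rheb KO Tregs (-1.24 ± 0.10, adjusted p = 4.881e-06). It was at 8.80, 8.92 and 8.89 in stimulated WT, against 10.15, 10.03 and 10.12 in unstimulated WT Tregs (-1.23 ± 0.10, adjusted p = 6.811e-06). The Isg20 changes in the 2 genotypes differed by less than their errors.

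In the oligoadenylate synthetase family, active enzymes such as Oas1a make a messenger that activates the nuclease RNase L. Oas2 had signals of 6.77, 6.37 and 6.61 in stimulated Rheb KO, against 8.18, 7.24 and 8.13 in unstimulated Rheb KO Tregs (-1.27 ± 0.27, limma adjusted p = 0.0086). It had 5.51, 5.76 and 6.22 in stimulated WT, against 7.31, 6.74 and 7.67 in unstimulated WT Tregs (-1.40 ± 0.27, adjusted p = 0.005034). The groups did not overlap, and both stimulated groups were near the controls. Oasl1 fell in both genotypes (-0.85 ± 0.20 in Rheb KO, -0.82 ± 0.20 in WT). Oas1a (-0.39 ± 0.10) and Oas3 (-0.84 ± 0.16) were called lower in Rheb KO Tregs only, and Oasl2 (-0.63 ± 0.18) in WT Tregs only, with arrays that overlapped.

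In the group of Isg15, ubiquitin ligases and ADP-ribosyltransferases, Isg15 fell. It had signals of 7.63, 7.77 and 7.57 in stimulated Rheb KO, against 8.55, 8.32 and 8.76 in unstimulated Rheb KO Tregs (-0.89 ± 0.13, limma adjusted p = 0.0008079), and fell by 0.81 ± 0.13 in WT Tregs. Dtx3l, a ubiquitin ligase that works in a complex with Parp9, rose by 0.49 ± 0.11 in Rheb KO and by 0.38 ± 0.11 in WT Tregs. Its stimulated arrays read 10.40, 10.60 and 10.59 against 10.04, 9.94 and 10.14 in unstimulated Rheb KO, and 10.66, 10.63 and 10.40 against 10.26, 10.06 and 10.21 in unstimulated WT Tregs. The WT call of Dtx3l held in only 4 of 12 fits that left out 1 array. Parp14, an ADP-ribosyltransferase, read 10.07, 10.02 and 10.07 in stimulated Rheb KO, against 9.38, 9.16 and 9.41 in unstimulated Rheb KO Tregs (0.74 ± 0.12, adjusted p = 0.001429), and its WT change of 0.30 ± 0.12 was not called. Herc6, the ligase that attaches Isg15 in mice, fell by 0.63 ± 0.13 in Rheb KO Tregs, and Trafd1, a feedback regulator of innate signalling, by 0.60 ± 0.15. Neither was called in WT Tregs.

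Among the members grouped under restriction of viruses, Cmpk2, a mitochondrial nucleotide kinase, fell most. It had signals of 6.81, 7.24 and 7.16 in stimulated Rheb KO, against 9.05, 8.91 and 9.28 in unstimulated Rheb KO Tregs (-2.01 ± 0.23, limma adjusted p = 0.0001058). It had 7.06, 7.52 and 6.35 in stimulated WT, against 8.46, 8.24 and 8.65 in unstimulated WT Tregs (-1.47 ± 0.23, adjusted p = 0.001254). Both stimulated groups reached the level of the controls, so these sizes are uncertain. Samhd1, which hydrolyses deoxynucleotides, rose; it read 12.29, 12.27 and 12.32 in stimulated Rheb KO, against 11.54, 11.41 and 11.62 in unstimulated Rheb KO Tregs (0.77 ± 0.09), and 12.22, 12.25 and 12.15 in stimulated WT, against 11.80, 11.60 and 11.79 in unstimulated WT Tregs (0.48 ± 0.09). Mx2 and Sp100, a protein of nuclear bodies, fell in both genotypes (Mx2 by 1.04 in Rheb KO and 0.91 in WT, Sp100 by 0.44 in Rheb KO and 0.37 in WT). Mx1, Rsad2 and Ly6e were called lower in Rheb KO Tregs only. There Mx1 was near the controls with and without stimulation, and Rsad2 with stimulation, so the sizes of these falls are uncertain. Of the 4 remaining members Ifi27l2a fell in both (by 0.46 in Rheb KO and 0.70 in WT), and Ifi35, Rtp4 and Xaf1 were not called.

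**Figure D3:**
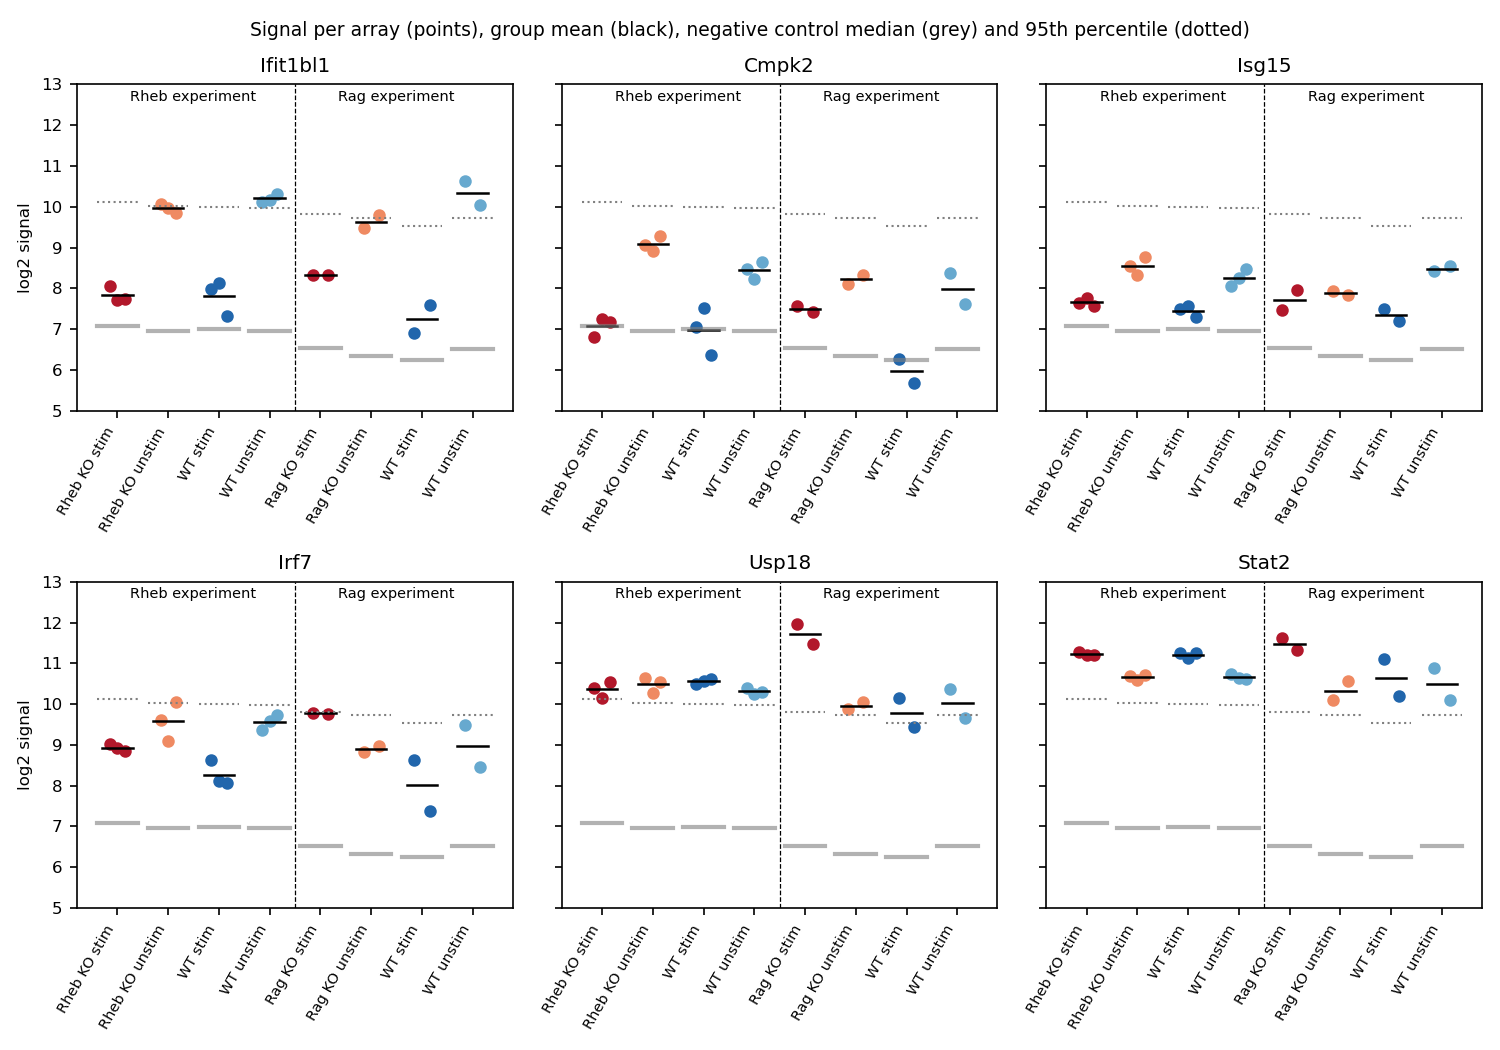
Log2 signal of 6 members in every array (points) by group, with the group mean in black, the negative control median in grey and the 95th percentile of controls dotted. Ifit1bl1, Cmpk2 and Isg15 are lower in stimulated than in unstimulated groups throughout except that the Isg15 arrays of Rag KO overlap; the 2 stimulated Rag KO arrays of Usp18, at 11.95 and 11.48, stand above all other arrays.

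The 2 genotypes shared 4 of the higher calls (all 4 of WT and 4 of the 5 of Rheb KO: Dtx3l, Eif2ak2, Samhd1, Stat2). They shared 13 of the lower calls (13 of 15 in WT and 13 of 21 in Rheb KO). A test of the difference between the 2 responses called 0 of 40 members and 0 of 19505 genes in limma. At an unadjusted p below 0.05 it gave 2 members higher and 2 lower, against 2.56% and 3.63% of all genes, and the lowest adjusted p of a member was 0.7319. Members called in 1 genotype only are therefore not shown to respond differently. By direction in WT Tregs, the promoter match was found in 2 of 4 members that rose, 4 of 11 that fell and 8 of 14 uncalled ones that had a promoter window.

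Leaving out 1 array at a time kept the call of 20 of 26 members in Rheb KO and 14 of 19 in WT Tregs in all 12 fits. The less stable calls were Ifit3, Oasl1, Mx1, Trafd1, Oas1a and Ly6e in Rheb KO Tregs (called in 5 to 11 of 12 fits) and Oasl1, Sp100, Eif2ak2, Oasl2 and Dtx3l in WT Tregs (4 to 9 of 12 fits). In Rheb KO Tregs the losses came with the Rheb KO arrays left out, for Ifit3 unstimulated array 1 (adjusted p = 0.05185) or stimulated array 3 (0.05409), for Oasl1 stimulated array 2 (0.06063), for Mx1 unstimulated array 3 (0.0753) or stimulated arrays 2 (0.06645) or 3 (0.05384), and for Trafd1 unstimulated arrays 2 (0.09855) or 3 (0.06326) or stimulated array 2 (0.09625). Oas1a lost its call without any 1 of the 6 Rheb KO arrays (adjusted p up to 0.09449), and Ly6e without any of these or stimulated WT array 1 (up to 0.1177). In WT Tregs Sp100 lost its call without unstimulated array 1 (0.09251) or 2 (0.06256) or stimulated array 1 (0.08266) or 3 (0.06916), and Oasl1 without unstimulated array 3 (0.07234) or stimulated array 1 (0.06836) or 3 (0.05392). The adjusted p reached 0.1583 for Oasl2 and 0.1404 for Dtx3l, both without stimulated WT array 1.

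Markers of macrophages moved with the falling members in this experiment. Of 10 measured macrophage markers 8 fell in Rheb KO Tregs (median change -1.11) and the same number in WT Tregs (median -0.65); Csf1r, the receptor for macrophage growth factor, fell by 2.16 ± 0.19 in Rheb KO and by 1.37 ± 0.19 in WT Tregs. The mean signal of the 10 markers was between 6.54 and 6.59 in stimulated Rheb KO arrays, between 7.81 and 7.92 in unstimulated Rheb KO arrays, between 6.49 and 6.65 in stimulated WT arrays and between 7.35 and 7.42 in unstimulated WT arrays. In stimulated arrays of either genotype 7 of the 10 were near the controls, against 1 in unstimulated Rheb KO and 3 in unstimulated WT arrays. Of the 7 measured markers of Tregs and CD4 T cells, 3 fell (Cd3e, Cd3g and Cd4) and 3 rose in Rheb KO Tregs. In WT Tregs 2 of these 7 fell (Cd3g and Cd4) and 1 rose. Dendritic cell markers fell for 4 of 11 genes in each genotype, and NK cell markers for 2 of 8 in Rheb KO and 3 of 8 in WT. In such bulk samples fewer cells of a type and less RNA per cell cannot be told apart, and the part of these cells in the fall of the members was not tested. In the Rag experiment 6 or 7 of the 10 macrophage markers were near the controls in every group, unstimulated ones included, which leaves little room for a measured fall, and 0 of 10 were called by limma on stimulation.

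Of the ligands that induce these genes, 0 of 13 measured type I interferon genes were called in limma in any of the 4 stimulation responses, and 5 to 8 of them were near the controls in each group. Of 15 sensors and induction factors, Ddx58 (RIG-I), Ikbke, Sting1 and Tlr7 fell in both genotypes of the Rheb experiment and none rose. Ddx58 fell by 0.90 ± 0.11 in Rheb KO and by 0.68 ± 0.11 in WT Tregs, and Tlr7 by 1.15 ± 0.19 and 1.19 ± 0.19. Among 11 receptor and kinase genes, Socs1, an inhibitor of interferon receptor signalling, rose by 0.66 ± 0.15 in Rheb KO and by 0.53 ± 0.15 in WT Tregs, and the phosphatase Ptpn6 fell by 0.78 ± 0.17 in both.

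Genes of the interferon-gamma axis mostly moved the opposite way. That list holds Ifng, the receptor genes Ifngr1 and Ifngr2 and the kinase gene Jak2 beside genes that interferon-gamma induces. Ifngr1 and Jak2 were among the rises in both genotypes, and Ifngr2 in WT Tregs. Of 17 measured genes of that axis, 12 rose in Rheb KO Tregs with 0 falling (median change 1.08), and 12 rose in WT Tregs with 1, Irf1, falling (median 0.57). Gbp2, a guanylate-binding GTPase, rose by 2.88 ± 0.14 in Rheb KO and by 1.80 ± 0.14 in WT Tregs, and Iigp1, an immunity-related GTPase, by 2.48 ± 0.13 and 1.94 ± 0.13.

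**Figure D4:**
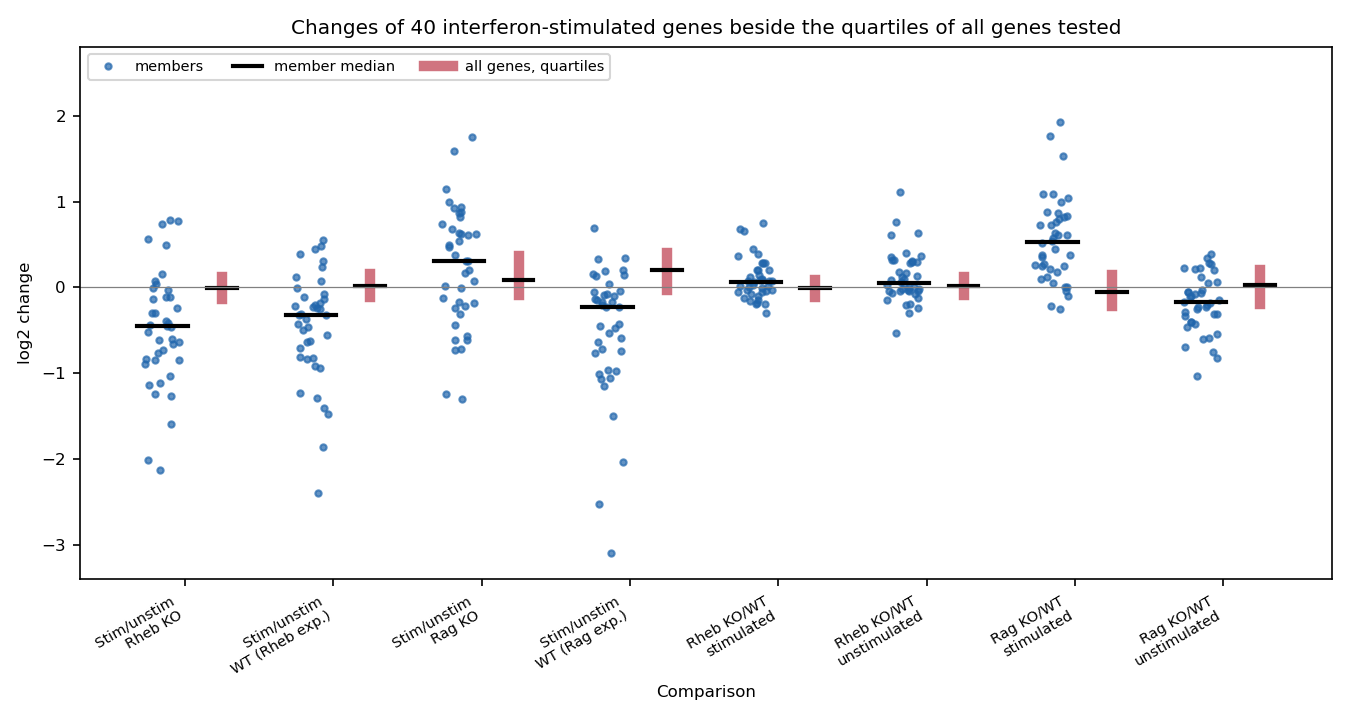
Log2 change of the 40 members (blue points, black line at their median) beside the middle 50% of all genes tested (red bar, black line at the median) for the 4 stimulation responses and 4 knockout effects. Member medians lie below the all-gene medians in both responses of the Rheb experiment and in WT Tregs of the Rag experiment, and above it for Rag KO over WT in stimulated cells (0.53 against -0.05).

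Loss of Rheb gave few calls among the members. In unstimulated Tregs 1 of 40 members was called, Rsad2, an enzyme that makes a chain-terminating nucleotide, where 0.226% of all genes rose and 0.282% fell. Rsad2 had signals of 7.03, 6.68 and 7.27 in Rheb KO, against 6.09, 6.36 and 6.24 in WT Tregs (0.76 ± 0.15, limma adjusted p = 0.04207). The groups did not overlap. However, the WT group was near the controls, and the Rheb KO mean of 6.99 was barely above its control median of 6.95. The call held in only 3 of 12 fits that left out 1 array (limma adjusted p up to 0.1603, without unstimulated WT array 1). With an unadjusted p below 0.05 there were 8 members higher and 3 lower, where 5.09% of all genes were higher and 5.09% lower. The median change of the members was 0.05, against 0.02 for all genes. All 10 macrophage markers had higher means in these unstimulated Rheb KO arrays, 2 of them called (C1qa by 1.14 ± 0.19 and Ms4a7 by 0.84 ± 0.16). Means were also higher for 10 of 11 dendritic cell markers, with H2-Ab1 and H2-Eb1 called, and for 7 of 8 NK cell markers, with Fcgr3 called. The part of these cells in the Rsad2 difference was not tested.

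In stimulated Tregs Rheb loss gave 0 calls among the members in limma, where 0.205% of all genes rose and 0.338% fell. There were 7 members higher and 0 lower at an unadjusted p below 0.05, against 3.78% and 5.47% of all genes. The largest of these was Oas2 (0.75 ± 0.27, near the controls), and the lowest adjusted p was that of Irf7 (0.66 ± 0.21, adjusted p = 0.288). Stat2 (0.02 ± 0.09), Irf9 (0.15 ± 0.11) and Usp18 (-0.19 ± 0.12) had arrays that overlapped between Rheb KO and WT.

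In the Rag experiment, stimulation for 8 h lowered members in WT Tregs too, with fewer calls. In WT Tregs 5 of 40 members fell and 0 rose in limma, where 0.523% of all genes fell and 0.477% rose; at an unadjusted p below 0.05, 15 members were lower and 0 higher, against 4.12% and 10.9% of all genes. In Rag KO Tregs 1 member fell and 1 rose, where 0.123% of all genes fell and 1.2% rose. The median change of the members was 0.31 in Rag KO and -0.23 in WT Tregs. All genes had medians of 0.09 and 0.21, so in WT Tregs the members' median lay below that of all genes. In Rag KO Tregs it lay above it as deposited, but became -0.0013 after a second quantile normalization and 0.0735 without unstimulated Rag KO array 1.

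Ifit1bl1 fell in both genotypes. It had signals of 8.32 and 8.33 in stimulated Rag KO, against 9.48 and 9.79 in unstimulated Rag KO Tregs (-1.30 ± 0.29, limma adjusted p = 0.04578). It had 6.89 and 7.59 in stimulated WT, against 10.63 and 10.03 in unstimulated WT Tregs (-3.09 ± 0.29, adjusted p = 0.0006843), 0.117 times the unstimulated signal. The groups did not overlap in either genotype. The Rag KO call was lost in 5 of 8 fits that left out 1 array, with an adjusted p of 0.1994 without stimulated Rag KO array 1, 0.3407 without array 2, 0.05388 without unstimulated Rag KO array 1 and 0.05965 without either unstimulated WT array.

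The other 4 falls in WT Tregs were those of Ifi213, Cmpk2, Herc6 and Isg15. Ifi213 had 6.93 and 7.20 in stimulated WT, against 9.68 and 9.49 in unstimulated WT Tregs (-2.52 ± 0.25, limma adjusted p = 0.001047). In Rag KO Tregs its signals were 7.68 and 8.21 with stimulation, against 8.47 and 8.64 without (-0.61 ± 0.25, not called). Cmpk2 had 6.26 and 5.67 in stimulated WT, against 8.38 and 7.60 in unstimulated WT Tregs (-2.03 ± 0.29, adjusted p = 0.00767), ending near the controls; without stimulated WT array 2 its adjusted p was 0.1234. Herc6 had 8.27 and 7.33 in stimulated WT, against 9.35 and 9.23 in unstimulated WT Tregs (-1.50 ± 0.31, adjusted p = 0.03641). Isg15 had 7.49 and 7.19 in stimulated WT, against 8.42 and 8.55 in unstimulated WT Tregs (-1.14 ± 0.25, adjusted p = 0.04635). All 4 sets of WT arrays kept apart, but Herc6 kept its call in 3 of 8 and Isg15 in 2 of 8 fits with 1 array left out, where the adjusted p reached 0.4683 for Herc6 and 0.4697 for Isg15 without stimulated WT array 2.

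The WT responses of the 2 experiments, which share no arrays, pointed the same way for the members that fell. Of the 15 members called lower in WT Tregs of the Rheb experiment, 14 had a Rag experiment WT change below 0. There 4 were called (Ifi213, Ifit1bl1, Isg15 and Cmpk2), and 73.1% of all genes had a change above 0. The share among all genes called lower in WT Tregs of the Rheb experiment was not counted. Whether this agreement is particular to the members was therefore not tested. The difference between the 2 WT responses was called for 0 of 40 members by limma, where 0.282% of all genes were higher and 0.041% lower in the Rag experiment. At an unadjusted p below 0.05, 2 members were higher and 3 lower, against 11% and 2.8% of all genes, and Herc6 had the lowest adjusted p (-1.31 ± 0.31, adjusted p = 0.07099). With 1 array left out at a time, the median of the 40 differences lay between -0.31 and 0.16.

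Usp18 was the member raised by stimulation in Rag KO Tregs. It had signals of 11.95 and 11.48 in stimulated Rag KO, against 9.87 and 10.05 in unstimulated Rag KO Tregs (1.76 ± 0.31, limma adjusted p = 0.01484), 3.38 times the unstimulated signal. In WT Tregs it had 10.15 and 9.42 with stimulation, against 10.37 and 9.66 without (-0.22 ± 0.31, not called). The Rag KO call was lost without stimulated Rag KO array 1 (adjusted p = 0.1417) or array 2 (0.06466).

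The other signalling members read as follows. Stat2 had 11.61 and 11.34 in stimulated Rag KO, against 10.10 and 10.55 in unstimulated Rag KO Tregs (1.14 ± 0.33, adjusted p = 0.1171), and 11.10 and 10.20 in stimulated WT, against 10.89 and 10.10 in unstimulated WT Tregs (0.15 ± 0.33). Irf9 had 10.71 and 10.45 in stimulated Rag KO, against 9.71 and 10.08 in unstimulated Rag KO Tregs (0.68 ± 0.28), and 10.19 and 9.93 in stimulated WT, against 10.49 and 9.70 in unstimulated WT Tregs (-0.04 ± 0.28). Irf7 had 9.79 and 9.75 in stimulated Rag KO, against 8.82 and 8.98 in unstimulated Rag KO Tregs (0.87 ± 0.38), and 8.62 and 7.38 in stimulated WT, against 9.49 and 8.47 in unstimulated WT Tregs (-0.98 ± 0.38). None of these 3 was called in the main fit. In Rag KO Tregs the stimulated arrays of all 3 lay above the unstimulated ones, and in WT Tregs they overlapped. The Rag KO results for Stat2 and Irf9 depended on the fit. Stat2 was called without the 40% dimmest genes (limma adjusted p = 0.04692) and with all 20 arrays (0.004166). Irf9 was called with all 20 arrays (0.04024). Over all members, 21 had stimulated Rag KO arrays entirely above the unstimulated ones and 11 entirely below, where 31.9% and 13.8% of all genes did. In WT Tregs 1 member lay entirely above and 16 entirely below, where 37.3% and 10.1% of all genes did.

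The interferon-gamma axis rose here as well, with 9 of 17 genes called in Rag KO Tregs (median change 1.74) and 3 of 17 in WT Tregs (median 0.49), and none fell. Gbp2 rose by 2.68 ± 0.24 in Rag KO and by 1.31 ± 0.24 in WT Tregs. Ifng itself rose in Rag KO Tregs (2.78 ± 0.39, limma adjusted p = 0.003921), with signals of 9.34 and 8.94 in stimulated Rag KO, against 6.13 and 6.59 in unstimulated Rag KO Tregs. It was not called in WT Tregs, where its signals were 7.83 and 6.35 in stimulated WT, against 7.77 and 7.39 in unstimulated WT Tregs, and overlapped. Socs1 rose by 1.72 ± 0.29 in Rag KO Tregs, and Tlr7 fell by 2.28 ± 0.25 in WT Tregs.

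**Figure D5:**
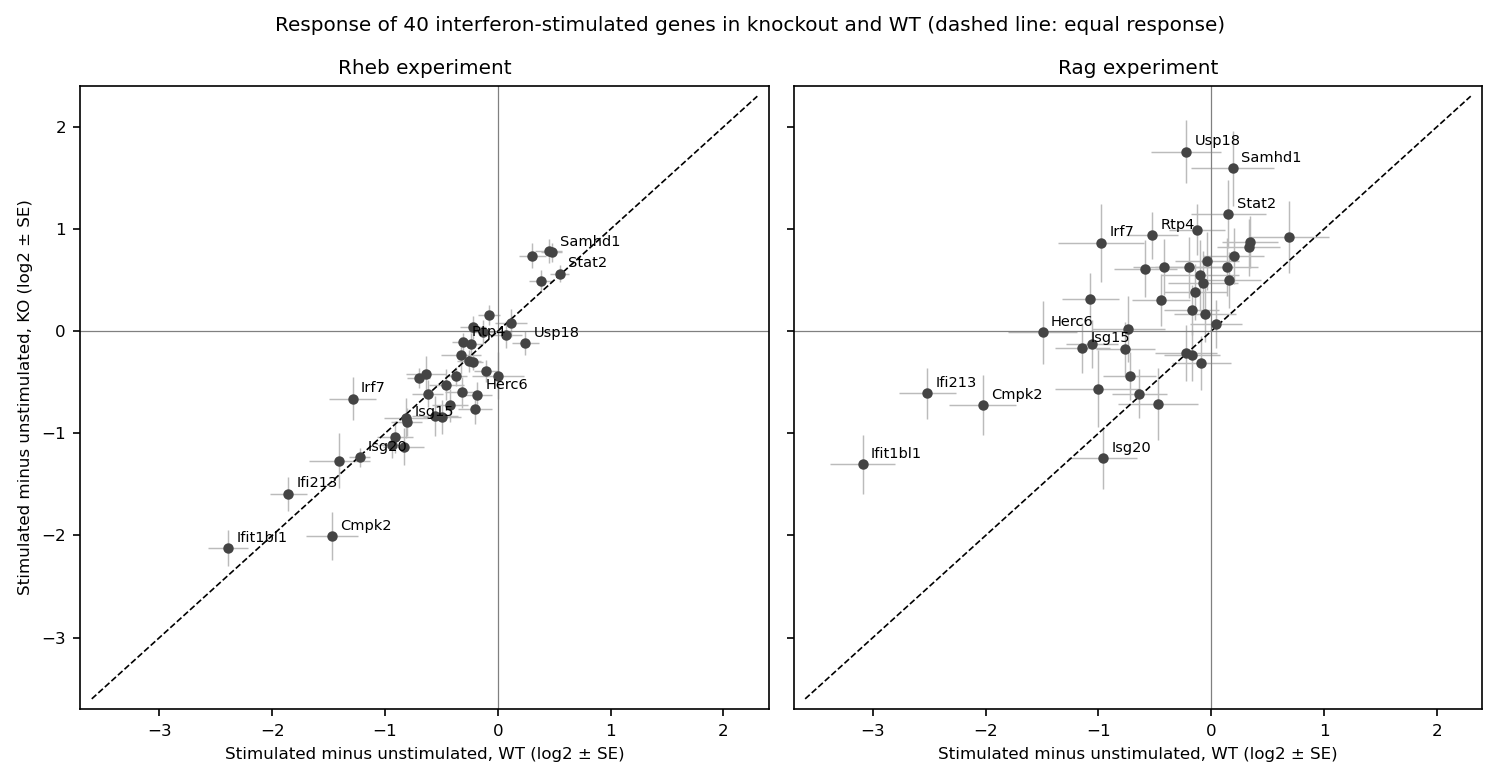
Response to stimulation in knockout (vertical axis) against WT Tregs (horizontal axis) for 40 members, in log2 units with bars of 1 standard error; left the Rheb and right the Rag experiment. Points lie along the dashed line of equal response in the Rheb experiment, where 18 of 40 are above it, and 36 of 40 lie above it in the Rag experiment. The 2 responses of an experiment come from separate arrays, and no member passed the test of their difference.

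Stimulated Rag KO Tregs carried more signal than stimulated WT Tregs for most members, of which Usp18 passed the test. It was higher by 1.93 ± 0.31 (11.95 and 11.48 in Rag KO, against 10.15 and 9.42 in WT Tregs; limma adjusted p = 0.03562), where 0.0923% of all genes were called higher and 0.0103% lower. The difference is 3.81-fold. Of the 40 members 36 had a change above 0 (90%, against 41.5% of all genes), and the median change was 0.53 against -0.05 for all genes. In 29 members both Rag KO arrays lay above both WT arrays and in 0 below, where 18.1% of all genes lay above and 26.2% below. At an unadjusted p below 0.05, 16 members were higher and 0 lower, against 3.69% and 1.38% of all genes. The 4 members with a change below 0 were Ifit3, Oas3, Mx1 and Mx2.

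The next members by size were not called. Irf7 had 9.79 and 9.75 in stimulated Rag KO, against 8.62 and 7.38 in stimulated WT Tregs (1.77 ± 0.38, limma adjusted p = 0.1376); stimulated WT array 2 was the low one, and without it the difference was 1.15. The call of Irf7 depended on the fit: it was called in 3 of 8 fits with 1 array left out, without dim genes (adjusted p = 0.01722), with a trended prior (0.009154), with all 20 arrays (0.008168) and without the 2 arrays of lowest median signal (0.002783), but not after a second quantile normalization. Cmpk2 differed by 1.53 ± 0.29 (adjusted p = 0.0899), from a WT group near the controls. Herc6 and Ifit1bl1 each differed by 1.09, and Rtp4, a chaperone induced by interferon, by 1.04 ± 0.23. The call for Usp18 was lost in 5 of 8 fits that left out 1 array. Its adjusted p was 0.6538 without stimulated WT array 2, 0.4584 without stimulated Rag KO array 1, 0.1138 without stimulated Rag KO array 2 and 0.1017 without either unstimulated WT array, with changes between 1.56 and 2.29 in all 8 fits.

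Without stimulation, Rag loss gave 0 calls among the members in limma, where 0.0513% of all genes were higher and 0.0615% lower, and the lowest adjusted p was 0.3122. At an unadjusted p below 0.05, 0 members were higher and 5 lower (Ifi213, Ifit2, Isg15, Ifit1bl1 and Samhd1), against 2% and 4.67% of all genes. For 1 member the Rag KO arrays lay entirely above the WT arrays and for 11 entirely below, where 15.9% and 12.5% of all genes did. Only 11 of 40 had a change above 0 and the median was -0.17, against 0.03 for all genes. The sign of that median rests on 1 array, since it was 0.14 without unstimulated WT array 1, and it was -0.48 without unstimulated WT array 2. Ifi213 was at 8.47 and 8.64 in unstimulated Rag KO, against 9.68 and 9.49 in unstimulated WT Tregs (-1.03 ± 0.25). The signalling members had arrays that overlapped, with changes from -0.20 ± 0.28 (Irf9) to -0.05 ± 0.31 (Usp18).

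The test of whether Rag loss changed the response called 0 of 40 members and 0 of 19505 genes in limma; the lowest adjusted p of a member was 0.7278. Before adjustment, at a p below 0.05, 14 members had a more positive response in Rag KO Tregs and 0 a more negative one, against 4.32% and 1.85% of all genes. The difference was above 0 for 36 of 40 members with a median of 0.62, against -0.08 for all genes. Its largest values were 1.98 ± 0.44 for Usp18, 1.91 ± 0.36 for Ifi213, 1.84 ± 0.54 for Irf7 and 1.79 ± 0.41 for Ifit1bl1. Over the 8 fits with 1 array left out, each with a lone array in 1 group, the median difference lay between 0.32 and 0.99.

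Set beside the Rheb knockout, the Rag knockout effect in stimulated Tregs was larger for Usp18. The Rag effect of 1.93 exceeded the Rheb effect of -0.19 by 2.12 ± 0.31 (limma over all 20 arrays, each knockout set against WT Tregs of the same experiment and state, adjusted p = 0.002172), where 0.174% of all genes were called higher and 0.0154% lower. That fit gives each gene 1 spread over both experiments. For Usp18 the SD was 0.05 to 0.20 in the Rheb experiment groups and 0.13 to 0.52 in the Rag experiment groups. The error is no larger than that of the Rag effect alone, so it may be too small. With 1 array left out at a time, the difference lay between 1.75 and 2.48. This comparison was added after the values were seen, and it reuses the stimulated Rag experiment arrays behind the Usp18 difference above. No other member was called, and 34 of 40 differences were above 0 (median 0.43, against -0.04 for all genes). In unstimulated Tregs 0 members were called by limma (8 lower and 0 higher at an unadjusted p below 0.05, against 4.65% and 2.66% of all genes), where 0.041% of all genes were called higher and 0.0154% lower. The experiments also differ in the number of arrays and may differ in stimulation time, which cannot be told apart from the genes deleted.

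Neutrophil markers moved with 1 pair of Rag KO arrays. S100a8 had signals of 8.99 in stimulated and 8.66 in unstimulated Rag KO array 2, against 4.18 to 6.14 in the other 6 arrays of the experiment (0 of 7 measured neutrophil markers were called by limma in any comparison), and Ngp had 9.41 and 10.44 there, against 5.94 to 7.89. The Usp18 difference from WT was 2.16 without stimulated Rag KO array 2 and 1.69 without array 1, and it was not called in either fit. The part of neutrophil RNA in the members' values was not tested.

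Of the 40 members, 29 were called in at least 1 of the 8 responses and knockout effects, and 11 in none (Bst2, Ifi211, Ifi35, Ifih1, Irf9, Parp9, Rtp4, Trim25, Trim30a, Xaf1 and Zbp1). Several of these came near the threshold. Ifih1 had signals of 8.86, 8.69 and 9.28 in stimulated Rheb KO, against 9.40, 9.40 and 9.59 in unstimulated Rheb KO Tregs (-0.52 ± 0.16, limma adjusted p = 0.05145), groups that did not overlap. Ifi211 had signals of 6.71, 6.55 and 6.17 in unstimulated Rheb KO, against 5.36, 5.16 and 5.56 in unstimulated WT Tregs (1.12 ± 0.23, adjusted p = 0.05338), again with no overlap but near the controls in both groups. Rtp4 had signals of 9.03 and 9.23 in stimulated Rag KO, against 8.18 and 8.21 in unstimulated Rag KO Tregs (0.94 ± 0.23, adjusted p = 0.06957). Stimulated WT arrays of that experiment had Rtp4 at 8.07 and 8.11, below both stimulated Rag KO arrays. Bst2, a membrane protein that tethers budding virus, and Trim30a stood above the controls in all groups, with changes of at most 0.38 in size for Trim30a and up to 0.92 ± 0.35 for Bst2, in stimulated over unstimulated Rag KO Tregs.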

How the data were processed

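Gene expression was measured in sorted mouse CD4+CD25+ cells with 20 Clariom S arrays, after amplification of total RNA. The log2 values were deposited by the authors as gene-level signals made by RMA with Affymetrix Expression Console 1.1, per the submitters' processing notes. No source states if the 20 arrays were normalized as 1 set, and background correction could not be varied here. Of 28846 probe sets, 19572 carried 1 gene. The highest-mean probe set stood for each of the 55 genes with several, which left 19505 genes, all tested without a filter on signal.

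Groups followed the sample titles. limma 3.58.1 (R 4.3.3) was fitted to each experiment alone, with the 4 group means as terms, and contrasts gave the response in each genotype, the knockout effect in each state and their interaction. Differences between experiments were fitted over all 8 groups. Tests are two-sided, p-values were adjusted (Benjamini-Hochberg) over all genes, and a gene was called below 0.05. Errors are standard errors unless SD is named. The code was tested on simulated data.

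Signals in every array are given for the 4 signalling members and for called members with the largest changes (up to 6 in each direction of a comparison) whose arrays did not overlap. Further members and arrays, chosen after their values were seen, are named where a count or a call rests on them: Ifi213 in Rag KO Tregs, Irf7, Cmpk2, Herc6, Ifit1bl1 and Rtp4 in stimulated Rag KO Tregs, and S100a8 and Ngp. The members, pathway lists and marker lists were chosen with earlier results of these data known. The 2 differences between Rag and Rheb knockout effects and the fits without the 2 dimmest Rag experiment arrays were added after seeing the data.

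Alternatives were a second quantile normalization, leaving out the 40% dimmest genes, a trended and robust variance prior, all 20 arrays in 1 fit, the mean of a gene's probe sets, the replicate block and leaving out each array. Promoter sequences were read from RefSeq tables (GRCm38.p6) by gene symbol; the 11 members with no promoter there were not searched.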

Additional observations from a re-analysis of the deposited data

How the results depend on the processing

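Calls in the Rheb experiment were the firmer ones, and calls in the Rag experiment moved with nearly every setting; the causes were not tested. The 40 members' called counts were 19 in WT and 26 in Rheb KO Tregs of the Rheb experiment, and 12 in WT with all 20 arrays in 1 fit, where the spread of the Rag arrays enters. In WT Tregs of the Rag experiment the 5 calls became 9 after a second quantile normalization, 11 with all 20 arrays and 11 without the 2 arrays of lowest median. For the Rag KO response the 2 calls became 4 after the second normalization, 6 without dim genes, 4 with the trended prior and 11 with all 20 arrays; its median of 0.31 became -0.0013, so the sign turned, after the second normalization, 0.47 without dim genes and 0.0735 without the 2 arrays. For unstimulated Rheb KO the 1 call became 0, 0 and 3 (second normalization, no dim genes, trended prior), and for unstimulated Rag KO the 0 calls became 1 with all 20 arrays. For stimulated Rag KO over WT the 1 call became 2, 3, 3, 8 and 8 (second normalization, no dim genes, trended prior, all 20 arrays, without the 2 arrays), all higher. The Rag interaction gave 1 call with the trended prior and 4 with all 20 arrays, the difference of WT responses 1 after the second normalization, and the stimulated Rag minus Rheb difference 3 without the 2 arrays.

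Deviations of same-numbered arrays from their group means correlated between -0.171 and 0.169 for the Rheb experiment, and between 0.120 and 0.302 for the Rag experiment with only 2 numbers, so the numbers were not treated as pairs. With the replicate number as a block, the Rag KO response had 4 calls and stimulated Rag KO over WT 3; the other members' counts stayed within 1.5 times, and the Rheb KO effect in stimulated Tregs went to 52 called genes, against 106 without the block, and stimulated Rag KO over WT to 42, against 20. Irf7 was among the calls for stimulated Rag KO over WT under the block (adjusted p = 0.03414), and Isg15 lost its call in WT Tregs of the Rag experiment (0.05061). The mean of a gene's probe sets changed no count of members by more than 1.5 times.

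Leaving out each array gave 21 to 27 called members in Rheb KO and 14 to 19 in WT Tregs of the Rheb experiment (medians -0.48 to -0.43 and -0.36 to -0.26), and 0 to 6 in Rag KO and 2 to 7 in WT Tregs of the Rag experiment (medians 0.0735 to 0.44 and -0.57 to -0.10). The knockout effects gave 0 to 1 calls for unstimulated Rheb (0.01 to 0.12), 0 to 0 for stimulated Rheb (0.04 to 0.10), 0 to 1 for unstimulated Rag (-0.48 to 0.14) and 0 to 3 for stimulated Rag (0.37 to 0.69). The Rag interaction gave 0 to 6 (0.32 to 0.99), the Rheb interaction 0 to 0 (-0.09 to 0.01), the difference of WT responses 0 to 5 (-0.31 to 0.16), and the Rag minus Rheb differences 0 to 3 unstimulated (-0.59 to -0.05) and 1 to 2 stimulated (0.30 to 0.55). Unstimulated Rag KO array 2 gave the upper counts of 6 (Rag KO response and interaction), 3 and 1, stimulated WT array 2 the lowest count of 2, and unstimulated WT array 1 the 5; the lone array left in a group is then assumed to vary like the other groups.

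Over all genes the called counts moved with the fit as well, and in most comparisons with the array left out. WT Tregs of the Rag experiment had 638, 354, 490, 1930 and 565 called genes, against 195 (second normalization, no dim genes, trended prior, all 20 arrays, without the 2 arrays), and stimulated Rag KO over WT 42, 57, 106, 227 and 274, against 20. Further counts that moved by over 1.5 times were 806 and 920 with all 20 arrays for WT and Rheb KO of the Rheb experiment, against 1828 and 1901. They were 529, 553 and 2146 (no dim genes, trended prior, all 20 arrays) for the Rag KO response, against 258, and 43, 36, 96 and 210 for unstimulated Rag KO, against 22. The difference of WT responses went to 146, against 63, after the second normalization. The unstimulated Rag minus Rheb difference went to 22, 17, 6 and 3 (second normalization, no dim genes, trended prior, without the 2 arrays), against 11, and the stimulated one to 64 and 124 (second normalization, without the 2 arrays), against 37. The interactions, with 0 called genes, reached 1, 7 and 1 for Rheb and 1, 10 and 25 for Rag (no dim genes, trended prior, all 20 arrays). The Rheb effects had 200 and 214 with the trended prior, against 99 and 106, and 28 and 13 with all 20 arrays. With 2 arrays a group in the Rag experiment, an uncalled member is not shown to be unchanged.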
